A study of Mus musculus with 3 samples.

Results

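Microglia, the resident macrophages of the brain, depend on a small set of surface receptors and on ligands that other brain cells supply. Transcripts of 10 such genes were followed by single-cell RNA sequencing in the arcuate nucleus of mice, a part of the hypothalamus involved in the control of feeding. They were found by their symbols in the gene list of the count matrices, and 10 of 10 were present among 31253 genes. Both sides were kept apart: the receptors, the marker protein and the adaptor encoded by Csf1r, Cx3cr1, P2ry12, Tmem119, Trem2, Tyrobp and Cd200r1 were measured in microglia, and the ligands Csf1, Il34 and Cx3cl1 in the other cell classes.

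There were 3 libraries, and each was made from the arcuate nuclei of 6 pooled male C57BL/6JRj mice aged 5 to 6 weeks. From weaning, the first group ate standard chow (SC) for 15 days, the second had 10 days of chow followed by 5 days of a diet rich in fat and sugar (HFHS), and the third had 15 days of HFHS. No transgene, injection or drug was named for any group. The tissue was micropunched, taken apart with collagenase/dispase and then papain, and sequenced with a 10x Genomics kit that reads the 3′ end of transcripts and counts unique molecular identifiers (UMIs), each of which stands for 1 captured transcript molecule. With 1 library per diet there was no replicate, so no test between diets could be made. All intervals are 95% intervals for counting error alone, and neither the spread between mice nor that between library preparations is in them. The HFHS libraries were both set against the same SC library, so their ratios are not independent of each other.

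Filtering left 4845, 4045 and 5181 cells in the SC, 5-day HFHS and 15-day HFHS libraries, with a median of 5156, 5783 and 4132 UMIs per cell. Barcode sequences kept in more than 1 library numbered 2 to 24 per pair of libraries. Cells were clustered without the 10 genes, and clusters were named from marker sets that did not contain them, so the values of the 10 genes did not set the classes. Some other genes named further on, such as Gpr34, P2ry13, Spi1, Fcrls, C1qc, Ctss and Selplg, were among the markers of microglia. The microglia-like class held 1714 cells: 581 in the SC library, 507 in the 5-day and 626 in the 15-day library. Its 2 clusters were led by Selplg, C1qa and Ctss and by Fcer1g, Rgs10, Ctss and C1qb, which are usual genes of microglia. The brain's other resident macrophages, those of its borders, formed a class of 36, 21 and 51 cells. Within the microglia-like class, 5 of 14 border macrophage markers were at 0 UMIs in each library, Lyve1, Cd163 and F13a1 among them, and the 14 together summed to 190, 220 and 252 CPM (UMIs per 1000000 UMIs of that class and library). Of the microglia-like cells, 166, 156 and 189 carried at least 2 UMIs of these markers.

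Csf1r is the receptor tyrosine kinase on which microglia depend for survival. It has a pair of ligands, CSF1 and IL-34, which are encoded by Csf1 and Il34. Cx3cr1 is the receptor of fractalkine (Cx3cl1), a chemokine that is held on the surface of the cells that make it and can be shed by proteases. P2ry12 is a G-protein-coupled receptor for ADP that guides microglial processes toward injury. Trem2 binds lipids and lipoproteins and signals through the adaptor Tyrobp (DAP12). Tmem119 is a membrane protein widely used to tell microglia from other macrophages. Cd200r1 is an inhibitory receptor for CD200, a protein found on neurons and endothelium.

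The positions of 9 of the genes on GRCm38 were as follows. Cx3cr1 spans chr9:119901616-120069879 on the minus strand and P2ry12 chr3:59216272-59262871 on the minus strand. Tmem119 spans chr5:113793729-113800516 on the minus strand, Trem2 chr17:48346401-48354147 on the plus strand, Tyrobp chr7:30413760-30417585 on the plus strand, and Cd200r1 chr16:44765736-44794978 on the plus strand. Among the ligands, Csf1 spans chr3:107741048-107760469 on the minus strand, Il34 chr8:110741829-110805924 on the minus strand, and Cx3cl1 chr8:94772009-94782427 on the plus strand. No exon of the 10 overlapped an exon of another annotated gene on the same strand. Exons on the other strand overlapped for Csf1r (Hmgxb3), Cx3cr1 (Gm33858), Il34 (Gm15894 and Gm15895) and P2ry12 (Med12l), and the sources used here do not say whether counting used strand. In the microglia-like class Med12l stood at 32.4, 32.9 and 28.4 CPM, far below P2ry12. Cd200r1 has close relatives in the same gene family, so its low counts are less certain than those of the others.

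The 250 bases before the transcription start of P2ry12 (the member whose 15-day level lay lowest against SC among those with ample counts) and of Trem2 (whose level was nearly the same in the 3 libraries) are shown side by side, from RefSeq on GRCm38.p6. They lie at chr3:59262986-59263235 on the minus strand and at chr17:48346151-48346400 on the plus strand. Capitals mark AGGAAG on either strand, letters that hold the GGAA core bound by the ETS family, to which the microglial regulator PU.1 belongs.
P2ry12: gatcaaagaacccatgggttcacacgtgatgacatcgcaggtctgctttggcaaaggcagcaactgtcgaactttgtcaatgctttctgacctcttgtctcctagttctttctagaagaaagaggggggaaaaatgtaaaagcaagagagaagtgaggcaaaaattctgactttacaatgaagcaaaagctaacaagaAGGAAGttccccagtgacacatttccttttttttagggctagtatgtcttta
Trem2: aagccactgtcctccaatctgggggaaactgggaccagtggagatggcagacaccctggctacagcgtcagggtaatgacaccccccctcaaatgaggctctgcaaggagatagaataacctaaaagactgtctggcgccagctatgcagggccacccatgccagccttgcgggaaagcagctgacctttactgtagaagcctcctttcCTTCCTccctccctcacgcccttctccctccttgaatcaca
P2ry12 held 1 match, read forward, that began 52 bases before its start. Trem2 also held 1, as the reverse complement, beginning 41 bases before its start. RefSeq promoters were at hand for 5 of the 10 genes, and 3 of these 5 (P2ry12, Trem2 and Cx3cl1) held the letters, as did 29.5% of 32851 mouse promoters of the same length. The motif was picked with these sequences in view, and a match is a description of letters, not a binding site.

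Between the diets, the log2 ratios to SC of the 7 microglial genes ran from -0.06 to 0.13 at 5 days and from -0.48 to 0.01 at 15 days. In microglia-like cells, 6 of the 7 genes had enough UMIs to be read against a size rule (100 or more UMIs over the pair of libraries, 30 CPM or more in one of them, a ratio of 1.5 or more either way, and an interval lying wholly beyond 25% higher or its inverse). None of them passed it in any of the 3 library pairs. Among all genes read in this class, 0.433% passed for 5-day over SC, 1.73% for 15-day over SC and 1.68% for 15-day over 5-day, so a count of 0 among 6 genes does not set these genes apart from the rest. Cd200r1 had too few UMIs for the rule. The lowest ratio among the well-counted genes was that of P2ry12 after 15 days, 0.81 times SC.

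**Figure D1:**
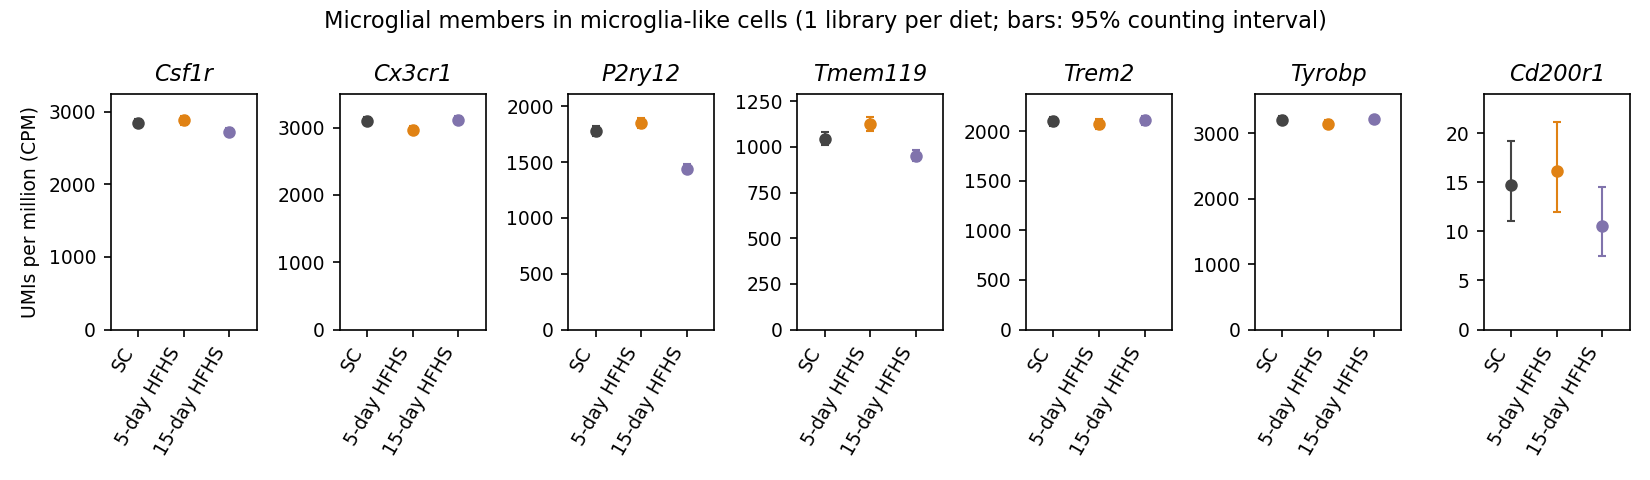
Levels of the 7 microglial genes in microglia-like cells, 1 panel per gene with its own vertical axis from 0, in CPM. Each point is 1 library (SC, 5-day HFHS, 15-day HFHS) and bars are 95% counting intervals. P2ry12 and Tmem119 were lowest in the 15-day library, and the 3 intervals of Cd200r1 overlap.

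Csf1r, the survival receptor, had 10439 UMIs in the SC library, 9133 in the 5-day and 9794 in the 15-day library. These are levels of 2841, 2884 and 2724 CPM. The 3 values lay close together, and the 15-day level was the lowest of them. The log2 ratio to SC was 0.02 (interval -0.02 to 0.06) at 5 days and -0.06 (-0.10 to -0.02) at 15 days, and the median over all genes read in the class was -0.01 and -0.07. When every cell was given equal weight, in place of every UMI, the 15-day ratio of Csf1r turned to 0.05, and after thinning each cell to 1000 UMIs it was 0.03.

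Cx3cr1, the fractalkine receptor, stood at 3094, 2963 and 3117 CPM. Its 5-day level was slightly below the other 2, with a log2 ratio to SC of -0.06 (-0.10 to -0.02), and its 15-day ratio was 0.01 (-0.03 to 0.05). Over 18 other settings these ratios ran from -0.27 to -0.04 at 5 days and from -0.06 to 0.25 at 15 days. The 15-day cells also carried Cx3cr1 more widely: 90.7% of them had at least 1 UMI, against 83.5% of SC and 80.5% of 5-day cells. With each cell thinned to 1000 UMIs, which left out 24, 18 and 11 shallower cells, the shares were 74.9%, 69.5% and 83.9%. The 15-day interval (80.8% to 86.7%) did not meet the SC interval (71.0% to 78.4%). In oligodendrocyte-like cells, which should lack the receptor and were deeper (median 14505.5, 15917 and 9657 UMIs, against 5381, 4973 and 4792.5 in microglia-like cells), 1.69% to 2.33% of cells had a UMI. The make-up of the class, described further down, differed as well. Its shallow cluster was low in Cx3cr1 and made up 36.3%, 44.2% and 19.0% of the class in the SC, 5-day and 15-day libraries. The part of this make-up in the share was not tested.

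By summed UMIs, P2ry12 gave the clearest departure of the set. Its levels were 1778, 1850 and 1439 CPM from 6532, 5856 and 5175 UMIs. The SC and 5-day values were near each other and the 15-day value lay under both. The log2 ratio to SC was 0.06 (0.01 to 0.11) at 5 days and -0.30 (-0.36 to -0.25) at 15 days, or 0.81 times (0.78 to 0.84), and against the 5-day library it was -0.36 (-0.42 to -0.31). Of the 4807 genes read in the class, 14.2% had a 15-day ratio as low or lower. These genes were not matched to P2ry12 for UMIs. They include far sparser genes, whose ratios scatter more by counting error, so the share is only a rough guide. Whether the shift of P2ry12 was rare among genes with similar counts was not tested. The 15-day ratio to SC stayed negative in 18 of 18 other settings, between -0.35 and -0.17, with the smallest departures when cells were thinned or weighted equally (-0.17 and -0.18). Leaving out barcodes that libraries shared gave -0.31, the deeper of the 2 clusters alone gave -0.35, and leaving out the 28.6%, 30.8% and 30.2% of cells with at least 2 UMIs of border macrophage markers gave -0.27. The share of cells with a UMI did not follow the level: it was 86.6%, 83.8% and 91.7%, and 70.7%, 66.3% and 67.5% after thinning.

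Tmem119 followed P2ry12 with a smaller step. Its levels were 1046, 1126 and 952 CPM. The log2 ratio to SC was 0.11 (0.04 to 0.17) at 5 days and -0.14 (-0.20 to -0.07) at 15 days. Unlike that of P2ry12, the 15-day ratio of Tmem119 turned positive with equal weight per cell (0.03) and after thinning (0.06). Between them, the 7 genes gave 2 intervals above 0 and 1 below at 5 days, where 5.15% and 7.02% of all genes read lay so, and 0 above and 3 below at 15 days, where 7.88% and 19.6% did.

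The Trem2 and Tyrobp pair was level. Trem2 stood at 2098, 2073 and 2109 CPM and Tyrobp at 3206, 3141 and 3209 CPM. Their 15-day log2 ratios to SC were 0.01 (-0.04 to 0.05) and 0.00 (-0.04 to 0.04). Receptor and adaptor were also found in the same cells: of microglia-like cells with a Trem2 UMI, 99.3%, 99.4% and 99.8% had a Tyrobp UMI. Tyrobp alone was found in 99.1% to 99.7% of the class, so this overlap is close to what its own breadth gives.

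Cd200r1 was sparse, with 54, 51 and 38 UMIs in all and 14.7, 16.1 and 10.6 CPM. Few cells had any, 8.09%, 8.28% and 5.43%, where oligodendrocyte-like cells had 0 UMIs in each library. Its 15-day log2 ratio to SC was -0.48, but the interval ran from -1.11 to 0.15, so a difference was not detectable at this depth. The median microglia-like cell carried UMIs of 6 of the 7 genes in each library, and of 5 after thinning. A UMI of each of the 7 was found in 7.57%, 7.89% and 4.95% of cells, and 0, 1 and 0 cells had none.

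**Figure D2:**
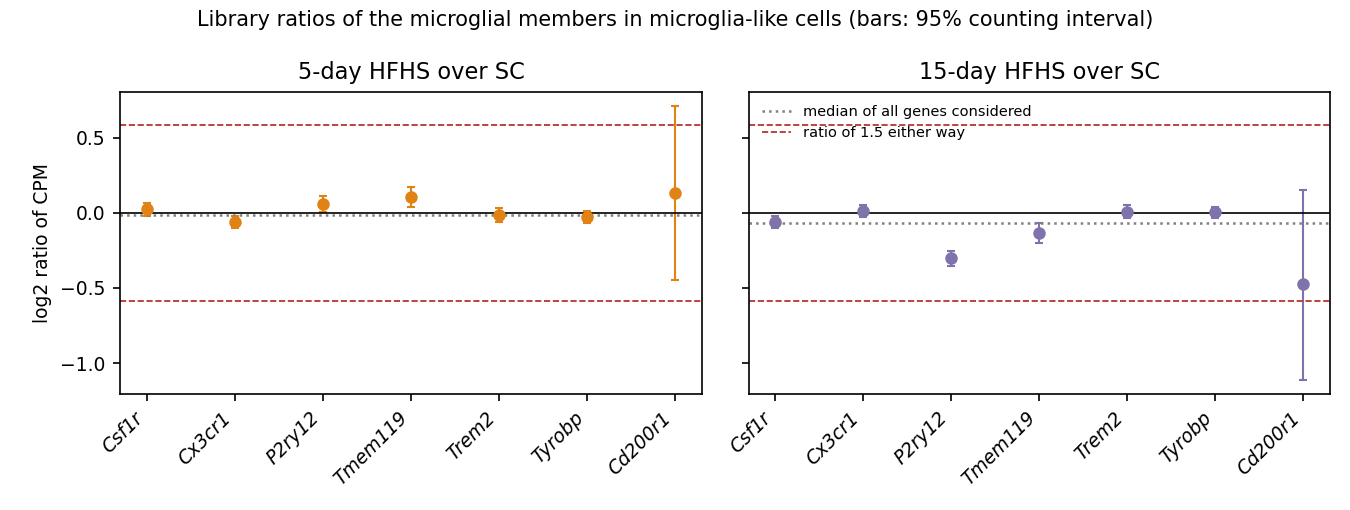
Log2 ratio of CPM to the SC library for the 7 microglial genes, 5-day HFHS on the left and 15-day HFHS on the right. Bars are 95% counting intervals, the dotted line is the median of all genes read in the class, and the dashed lines mark a ratio of 1.5 either way. P2ry12 at 15 days (-0.30) sits apart from the other narrow intervals, and Cd200r1 has the widest ones.

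The 7 genes were not spread evenly inside the class. Its deeper cluster (median 7075.5, 8186 and 5732 UMIs per cell) held 370, 283 and 507 cells, and its shallower one (1697, 1534.5 and 1753 UMIs) held 211, 224 and 119. Cx3cr1 showed the widest gap, at 3437, 3318 and 3308 CPM in the deeper and 603, 656 and 690 CPM in the shallower cluster. P2ry12 was at 1918, 1994 and 1510 against 762, 910 and 549 CPM. In both clusters the 15-day value of P2ry12 was the lowest of the 3.

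Csf1r stood at 3012, 3045 and 2809 CPM in the deeper cluster and at 1604, 1843 and 1648 CPM in the shallower. Tmem119 was at 1133, 1234 and 988 against 409, 422 and 492 CPM. For Tmem119 the 15-day value was thus the lowest in the deeper cluster and numerically the highest in the shallower. In the shallower cluster its intervals overlapped (352 to 473, 362 to 488 and 411 to 585 CPM), so an opposite direction there was not resolved. Trem2 differed little between the clusters, 2121, 2112 and 2132 against 1928, 1817 and 1812 CPM, and Tyrobp ran the other way, 3027, 2994 and 3125 against 4505, 4094 and 4279 CPM. The clusters were cut from the expression of other genes of the same cells, so these gaps are a description. Mitochondrial UMIs moved with them, with a median of 2.54% to 3.00% per cell in the deeper and 4.66% to 5.95% in the shallower cluster, and the part of cell quality in the gaps was not tested.

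**Figure D3:**
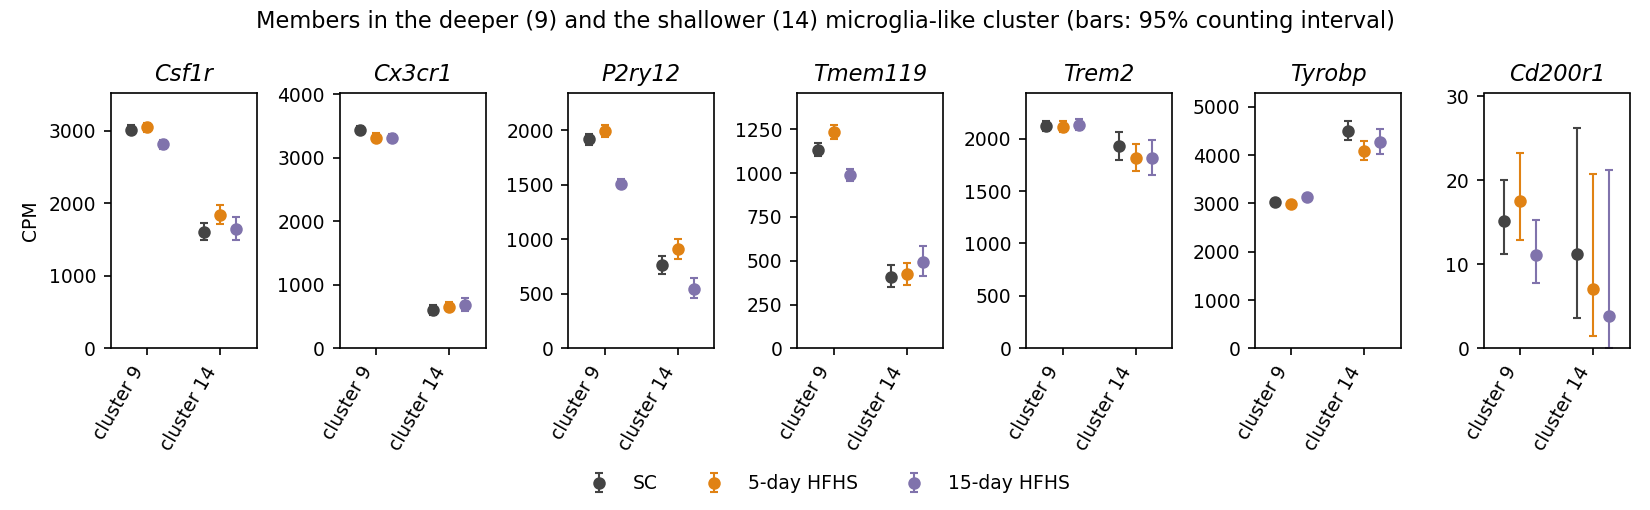
Levels in CPM of the 7 microglial genes in the deeper (9) and the shallower (14) microglia-like cluster, by library; bars are 95% counting intervals and each panel has its own axis from 0. Cx3cr1 is 3308 to 3437 CPM in cluster 9 and 603 to 690.3 in cluster 14, while Tyrobp is higher in cluster 14.

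Outside microglia the set split. In border macrophage-like cells Csf1r stood at 1240, 1322 and 1230 CPM and Tyrobp at 2831, 2738 and 2199 CPM, each below its microglial level. Cx3cr1 was at 565, 478 and 678 CPM and Trem2 at 554, 375 and 407 CPM, below their microglial levels in each library. P2ry12 (104, 76.8 and 112 CPM) and Tmem119 (17.3, 8.53 and 49.9 CPM, from 3, 1 and 12 UMIs) were lower still. Cd200r1 was higher there than in microglia-like cells in each library, 80.7, 59.7 and 20.8 CPM, but from 14, 7 and 5 UMIs, and the 15-day interval (6.75 to 48.5) held the microglial level.

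In the classes of neurons, glia other than microglia, and vessels, the 7 genes were near the floor. Their levels, taken over the libraries, were between 0% and 1.097% of the microglial level in each of the 9 such classes compared. The summed microglial marker genes, a measure of stray microglial RNA, were at 0.190% to 0.950% in the same classes. The highest share, for Csf1r in pericyte-like cells, was 1.097%, beside 0.950% for the markers in that class. It rested on the 15-day library: by library, Csf1r there was at 0.256%, 0.368% and 2.667% of the microglial level and the markers at 0.596%, 0.363% and 1.892%.

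For each of the 10 genes, the 3 genes with the most similar log2(CPM + 10) were listed over 30 points (10 classes in 3 libraries), among 15236 genes. For Csf1r these were Fcrls, C1qc and Ctss (Pearson r 0.99 to 1.00), for Cx3cr1 Fcrls, Selplg and Slamf8, and for P2ry12 Fcgr3, Selplg and Fcgr1. Tmem119 was nearest to Pld4, Fcgr1 and Csf3r, Trem2 to Selplg, Fcrls and C1qa, Tyrobp to Fcer1g, Ly86 and C1qb, and Cd200r1 to Mir142hg, C5ar1 and Gm49368. The points share libraries and depth, and such values mostly say that a gene is high in 1 class and low in the rest.

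Genes around the receptors were read in the microglia-like class from lists of related genes. Over all genes read in this class, 46.9% were higher than SC at 5 days and 37.8% at 15 days. The counts of each list stand beside these shares, but the minimums were unlike. Genes read met the UMI and CPM minimums of the size rule. The lists had a lower UMI minimum and no CPM minimum, so they also count sparser genes, and the shares are only a rough guide. Of 36 other genes of homeostatic microglia, 26 were higher and 10 lower at 5 days (median log2 ratio 0.04), and 12 were higher and 24 lower at 15 days (median -0.10, beside -0.07 for all genes read). None passed the size rule. Among those farthest from SC at 15 days were Gas6, a bridging ligand for phagocytosis (120 to 86.2 CPM, log2 ratio -0.48), and the receptor Gpr34 (1156 to 869 CPM, -0.41). Their 5-day ratios to SC were -0.26 and 0.06. The median of this list and that of the 7 genes (-0.06) lay near that of all genes at 15 days.

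For Csf1r signalling, 28 of 29 listed genes were measured (at least 50 UMIs), 14 higher and 14 lower at 5 days and 8 higher and 20 lower at 15 days, with none past the size rule. The farthest at 15 days were the kinase Fyn (27.2 to 15.3 CPM, -0.83) and Akt1 (104 to 72.9 CPM, -0.51), and Src was among those higher (17.7 to 23.9 CPM, 0.43). A measured gene need not reach the 30 CPM that the rule asks for. Fyn and Src did not, so they could not pass it at 15 days. Fyn was also among the markers used for committed oligodendrocyte precursors. Those markers summed to 1364, 1343 and 1307 CPM in the microglia-like class, and the part of such RNA in the Fyn ratio was not tested. Spi1, which encodes PU.1, had a ratio of -0.18 (480 to 425 CPM). For Cx3cr1 signalling, 5 of 14 measured genes were higher at 5 days and 3 of 14 at 15 days, again with none past the rule. There the arrestin Arrb1 had a 15-day ratio of -0.48 (37.3 to 26.7 CPM).

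The list of Trem2 and Tyrobp partners held 3 genes past the size rule. Among all genes read in the class, 0.433% passed it for 5-day over SC and 1.73% for 15-day over SC. Of 24 measured genes, 12 were higher and 12 lower at 5 days, and 10 were higher and 14 lower at 15 days. Past the size rule at 15 days were Apoe, which encodes a lipoprotein that Trem2 binds (5146 to 7944 CPM, log2 ratio 0.63, interval 0.60 to 0.65), and Apoc1 (22.6 to 68.7 CPM, 1.60), both higher. Lipoprotein lipase (Lpl) was lower, at 74.6, 47.1 and 40.6 CPM, with ratios to SC of -0.66 at 5 days and -0.88 at 15 days, both past the rule. Apoe is also abundant in other glia. Within the microglia-like class the summed astrocyte markers were at 443, 582 and 502 CPM and the tanycyte markers at 71.6, 52.4 and 82.9 CPM, and the part of such RNA in the Apoe ratio was not tested. The receptor and adaptor themselves were level, as given above.

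Of the other purinergic genes, 9 of 10 measured were higher at 5 days and 2 of 9 at 15 days. P2ry13, which sits beside P2ry12 in function as an ADP receptor, was at 344, 347 and 284 CPM, with a 15-day log2 ratio of -0.28 (-0.40 to -0.16), close to that of P2ry12. P2ry6, a UDP receptor, had a ratio of -0.32 (260 to 208 CPM), and the ATP-degrading enzyme Entpd1 was level at 342, 348 and 343 CPM. Of genes for TGF-beta signalling, a pathway that maintains the microglial state, 9 of 14 were higher at 5 days and 2 of 14 at 15 days. Of CD200 and other checkpoint genes, 7 of 15 were higher at 5 days and 7 of 17 at 15 days, with Sirpa, the receptor for CD47, at -0.31 (506 to 409 CPM). No gene of these 3 lists passed the size rule in either comparison with SC.

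The ligands of Csf1r came from different classes. Among the 10 compared classes, Csf1 was highest in oligodendrocyte-like cells in 3 of 3 libraries, at 62.9, 61.8 and 61.2 CPM from 461, 369 and 289 UMIs. By summed UMIs the values hardly differed between libraries, with 15-day over SC at -0.04 (-0.26 to 0.18). Over 17 other settings this ratio ran from -0.42 to 0.02. Oligodendrocyte-like cells held 34.1%, 31.4% and 31.2% of the Csf1 UMIs of their library. Inside the class a cluster of 154 cells, led by Klk6 and Anln, was higher than the others, at 95.3, 81.6 and 94.1 CPM, against 57.5, 59.97 and 59.4 and 54.0, 61.8 and 52.8 CPM in the other two.

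Astrocyte-like cells came next for Csf1, at 38.8, 32.0 and 36.2 CPM, and their range over the libraries overlapped that of committed oligodendrocyte precursors (COP-like cells, 28.6, 35.9 and 36.7 CPM). Endothelial-like cells were at 26.3, 30.3 and 19.3 CPM and ependymal-like cells, which line the ventricle, at 23.5, 24.3 and 23.1 CPM. Neuron-like cells (20.7, 17.2 and 20.04 CPM), tanycyte-like cells (15.7, 17.2 and 15.4 CPM) and microglia-like cells (22.0, 18.0 and 12.8 CPM) had overlapping ranges. Most neighbours in this order thus did not differ beyond their spread over libraries, and the oligodendrocyte-like class was clear of all that followed. Leptomeningeal fibroblast-like cells, too few to be compared, were at 88.7, 82.7 and 15.2 CPM from 7, 7 and 1 UMIs, with wide intervals that held the oligodendrocyte-like level. An unnamed cluster of 53 cells with fibroblast markers, 49 of them from the 15-day library, was at 29.6 CPM (13.5 to 56.1). In microglia-like cells themselves, the 15-day over SC ratio of Csf1 was -0.78 (-1.34 to -0.25), from 46 and 81 UMIs, below the CPM minimum of the size rule.

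**Figure D4:**
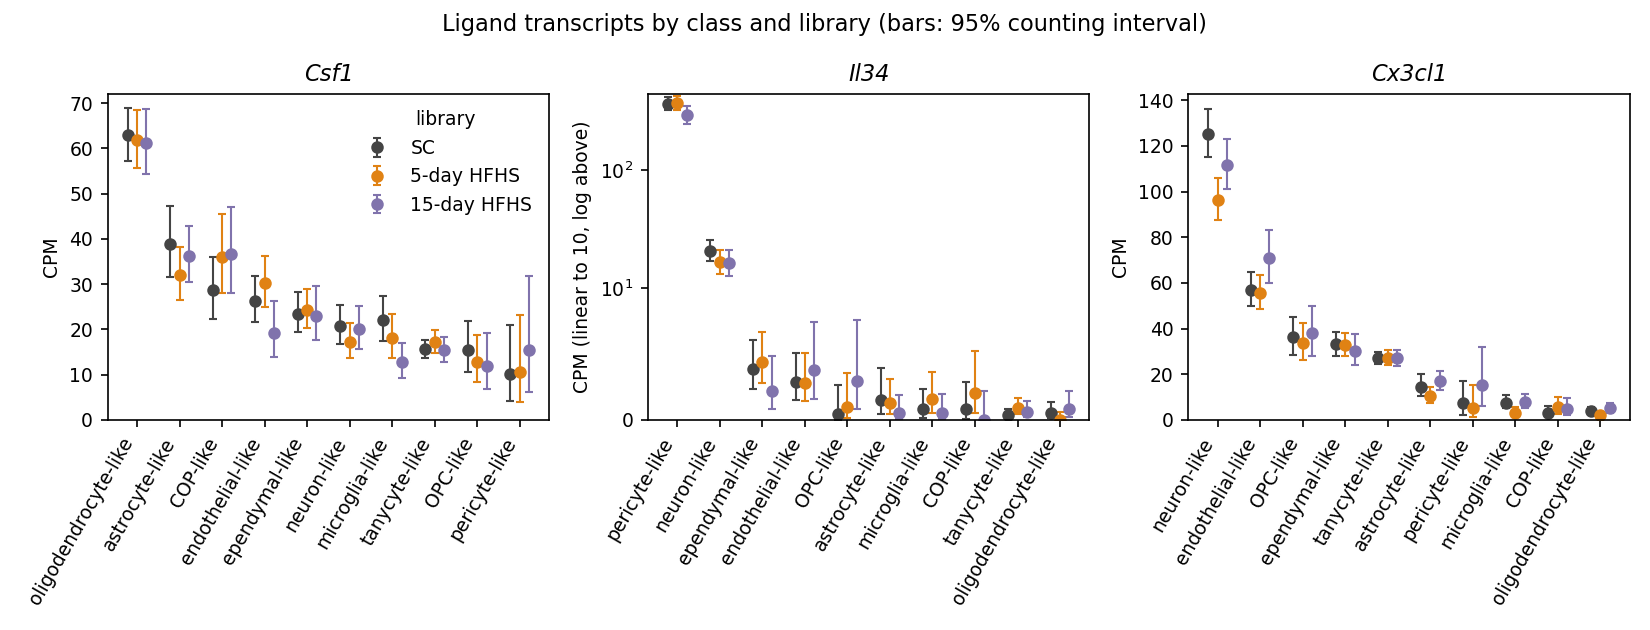
Levels in CPM of Csf1, Il34 and Cx3cl1 in the 10 compared classes, ordered by mean level; colours give the library and bars the 95% counting interval. The Il34 axis is linear up to 10 CPM and logarithmic above. Csf1 is broad with a maximum near 62 CPM in oligodendrocyte-like cells, Il34 is concentrated in pericyte-like cells and Cx3cl1 is highest in neuron-like cells.

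Among the 10 classes that held 100 or more cells in every library, Il34 was highest in pericyte-like cells, the contractile cells of capillary walls. There it stood at 365, 370 and 293 CPM from 251, 209 and 133 UMIs, and 71.7%, 76.6% and 56.7% of these cells had a UMI (27.7%, 28.3% and 30.4% after thinning, without 4, 4 and 16 shallower cells). In microglia-like cells 0.516%, 0.592% and 0.319% had one. Pericyte-like cells, 152, 124 and 141 in number, held 48.3%, 49.3% and 43.9% of all Il34 UMIs. The 15-day ratio to SC was -0.32 (-0.63 to -0.01), and it turned to 0.09 when each library was clustered alone and to 0.10 after thinning, so its direction depended on the setting. In pericyte-like cells 0.511% and 4.28% of all genes passed the size rule at 5 and 15 days, and Il34 did not.

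The class held pericytes and smooth muscle together, with Tagln and Acta2 among its leading genes. At a finer clustering (resolution 2) the pericyte-like cells gave 428, 431 and 389 CPM of Il34 and the smooth muscle-like cells, 21, 12 and 26 in number, 144, 81.0 and 118 CPM. Acta2, a gene of smooth muscle, stood at 354, 356 and 164 CPM in the first and at 18784, 21872 and 18697 CPM in the second. Il34 was therefore higher on the pericyte side in each library, and the intervals of the pair did not meet. Leptomeningeal fibroblast-like cells, only 10, 10 and 11 in number, had numerically more Il34, at 494, 449 and 320 CPM from 39, 38 and 21 UMIs. This did not hold for all cells with fibroblast markers. A cluster of 53 such cells led by Dcn, 49 of them from the 15-day library, was left unnamed. It had 9.86 CPM of Il34 from 3 UMIs. A cluster of 95 cells left unnamed because it mixed endothelial and pericyte markers had 118, 77.1 and 80.2 CPM, at a median of 15679 UMIs per cell.

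Neuron-like cells were the second class for Il34, at 20.9, 16.8 and 16.5 CPM, and the 3 libraries lay apart from all 8 classes that followed, which stood at 4.44 CPM or less. Border macrophage-like cells had 0 Il34 UMIs in each library, which allows up to 12.5 to 25.6 CPM (3 UMIs of the class total). The genes most like Il34 across classes were Tbx3os1, Zic1 and Zic4 (r 0.98 to 0.99), and those most like Csf1 were Otud7b, Ccp110 and Clmn (r 0.86 to 0.87). Zic1 was split the same way between the mural cells, at 483, 506 and 433 CPM in pericyte-like and 144, 122 and 130 CPM in smooth muscle-like cells.

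Cx3cl1 had the same class order at the top in each library. Neuron-like cells came first, at 125, 96.4 and 112 CPM, then endothelial-like cells at 57.0, 55.6 and 71.1 CPM, precursors of oligodendrocytes (OPC-like cells) at 36.1, 33.7 and 37.9 CPM, ependymal-like cells at 33.1, 32.8 and 30.1 CPM and tanycyte-like cells at 26.9, 27.3 and 26.9 CPM. The ranges of these 5 classes over the libraries did not overlap. Astrocyte-like cells were at 14.6, 10.6 and 16.9 CPM, and oligodendrocyte-like cells, the main class of Csf1, at 3.95, 2.01 and 5.08 CPM. In neuron-like cells 47.7%, 44.1% and 43.6% had a Cx3cl1 UMI, against 4.65%, 1.97% and 4.15% of microglia-like cells. After thinning to 1000 UMIs, which left out 44, 61 and 75 shallower neuron-like cells, the shares were 14.1%, 9.17% and 6.95% in neuron-like and 1.62%, 0.818% and 0.650% in microglia-like cells. The thinned share was therefore lowest in the 15-day library, while the CPM was lowest in the 5-day library.

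Between the libraries, Cx3cl1 in neuron-like cells had a log2 ratio to SC of -0.38 (-0.56 to -0.20) at 5 days and -0.17 (-0.35 to 0.02) at 15 days. In this class the median of all genes was -0.14 in both comparisons and 7.47% and 16.3% of all genes passed the size rule, while Cx3cl1 did not. Scaling by trimmed means or by median ratios moved the ratios to SC of the class upward by 0.17 to 0.22, which left Cx3cl1 at -0.19 and -0.21 at 5 days and turned it to 0.06 at 15 days under both. The mix of neurons also differed, with 6, 31 and 34 cells in the AgRP-led cluster. A further 44 cells with neuron markers, all from the 15-day library, were left unnamed and had 97.5 CPM. Unnamed cells held 2.29%, 2.97% and 13.5% of the Cx3cl1 UMIs of their library. A fixed mix of clusters gave -0.07 (5 days) and 0.10 (15 days), and thinning gave -0.55 and -1.02. The 15-day value thus ran from -1.02 to 0.10 over 17 other settings, and was negative in 14 of them. In endothelial-like cells the 15-day ratio was 0.32 (0.01 to 0.62), higher in each of 17 other settings (0.26 to 0.51) and not past the rule, which 2.86% of genes passed there. The cluster of fenestrated endothelium, described next, held 27 SC and 78 15-day cells.

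Neuron clusters differed more from each other than the diets did. Summed over the libraries, the glutamatergic clusters stood at 273 (interval 236 to 314) and 231 (198 to 268) CPM of Cx3cl1. The cluster led by Pomc, Gal, Cartpt, Sst and Ghrh stood at 112 CPM (101 to 123), and AgRP neurons, which drive feeding, at 41.7 CPM (33.8 to 51.0). The order held in each library: in the larger glutamatergic cluster the levels were 253, 253 and 343 CPM, in the Pomc-led cluster 128, 114 and 98.4 CPM, and in AgRP neurons 51.4, 37.2 and 47.3 CPM. A cluster of 122 cells with myelin genes such as Mag and Mal among its leading genes was left unnamed and had 93.1 CPM.

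**Figure D5:**
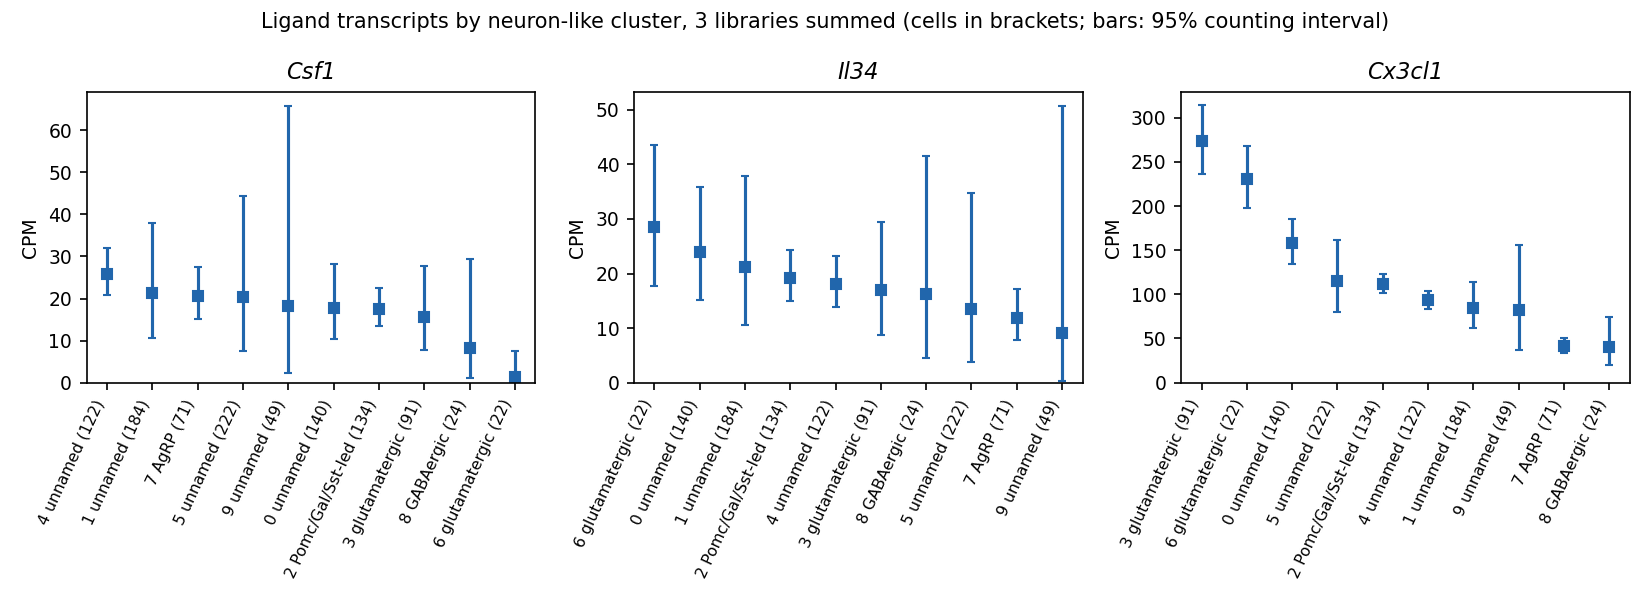
Levels in CPM of Csf1, Il34 and Cx3cl1 in the 10 neuron-like clusters, summed over the 3 libraries and ordered by level in each panel; the number of cells stands in brackets and bars are 95% counting intervals. The intervals of Csf1 and Il34 overlap for most clusters, while Cx3cl1 is 231 to 273 CPM in the glutamatergic clusters and 41.7 CPM in AgRP neurons.

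The other neuronal clusters had 82.0 to 158 CPM of Cx3cl1, except for 24 GABAergic cells at 40.6 CPM (19.5 to 74.7). Among vessels, the endothelial-like cluster led by Plvap, a gene of fenestrated capillaries, had 54.4, 86.4 and 142 CPM, but from 2, 5 and 22 UMIs. The larger endothelial-like cluster had 57.0, 55.2 and 65.5 CPM. Genes most like Cx3cl1 across the classes were Wee1, Myh10 and Stx3 (r 0.93 to 0.96).

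CD200, the ligand of the receptor encoded by Cd200r1, is not one of the 10 genes but completes the last pair. Cd200 was highest in endothelial-like cells, at 306, 304 and 333 CPM, in each library. Pericyte-like cells (211, 189 and 266 CPM) and neuron-like cells (190, 217 and 223 CPM) followed, with overlapping ranges. OPC-like cells were at 117, 119 and 107 CPM and microglia-like cells at 6.26, 7.58 and 10.8 CPM. Among the 10 compared classes the transcripts of the 4 ligands were thus highest in 4 different ones: Csf1 in oligodendrocyte-like, Il34 in pericyte-like, Cx3cl1 in neuron-like and Cd200 in endothelial-like cells.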

How the data were processed

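Raw UMI counts per gene and barcode were deposited by the authors in 3 matrices, and the values were whole numbers. Per the submitters' processing notes, Cell Ranger, GRCm38, SAMtools and Scanpy 1.4.4 were used. Version 3.1.0 of the software is named per the file headers. Which gene annotation was counted on is not given in the sources used here. Coordinates come from GENCODE on GRCm38, which held 31184 of the 31253 gene identifiers.

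Barcodes under 500 genes or over 20% mitochondrial UMIs were removed. The automatic doublet call of Scrublet (in Scanpy 1.11.5) marked 0%, 0% and 1.87% of barcodes and was not used. Instead the highest scores, 0.8% per 1000 barcodes, were removed (271, 207 and 320). The kept cells held 49426200, 43182795 and 35434774 UMIs. The 3 libraries were clustered together without integration (counts scaled to 10000, 3000 variable genes without the 10 members, 40 principal components, 15 neighbours, Leiden resolution 1). A cluster was named from at least 3 markers among its 50 leading genes. Names were rebuilt here and may differ from the authors' own. The 35 clusters gave 13 named classes, 10 of them with at least 100 cells in each library, and 280 cells stayed unnamed.

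For each class in each library, UMIs were added up and scaled to 1000000 (CPM). Sums have exact Poisson, ratios exact conditional binomial and shares exact Clopper-Pearson intervals, at 95%, for counting error only. UMIs of 1 cell are not independent, which the intervals of sums leave out. No p-value was computed. A gene of a list counted as measured from 50 UMIs over the pair of libraries. The named genes were the 10 members, up to 4 genes per list with the largest ratio, and the 3 most similar genes per member. Spi1, P2ry13, P2ry6, Entpd1, Acta2 and Med12l were named after their values were seen. Some genes that this rule names are not reported here. Members and lists were chosen with earlier results of these data known. The size rule was tested on simulated counts. R 4.3.3 and edgeR 4.0.16 gave trimmed-mean factors. Python 3.11.15, NumPy 2.4.6, SciPy 1.17.1, pandas 2.3.3, AnnData 0.12.19, scikit-learn 1.9.0, igraph 0.11.9 and Matplotlib 3.10.9 were also used.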

Additional observations from a re-analysis of the deposited data

How the results depend on the processing

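No paired analysis was possible because each diet had 1 library. The number of microglial members past the size rule stayed at 0, and the leading class of each ligand among the 10 compared stayed first in 3 of 3 libraries, in the settings run. The number of all genes past the rule in microglia-like cells moved: for 5-day over SC it was 21, and 36 with each library clustered alone, 160 with equal weight per cell, 6 after thinning to 1000 UMIs, 12 without each gene's top cell, 38 with a fixed mix of clusters and 118 with no minimum. For 15-day over SC it was 83, and 202 (equal weight), 30 (thinned), 164 (fixed mix) and 223 (no minimum). For 15-day over 5-day it was 81, and 302, 34, 155 and 239 in the same order. Thinning left fewer genes to read, and the interval was not applied with equal weight or a fixed mix.

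Signs of log2 ratios turned with equal weight and thinning, in that order, for P2ry12 at 5 days (-0.0764 and -0.1135), Tmem119 at 5 days (-0.0412 and -0.0149) and 15 days (0.027 and 0.0608), Csf1r at 15 days (0.0455 and 0.0266), and, for 15-day over 5-day, Csf1r (0.0694 and 0.1196) and Tmem119 (0.0682 and 0.0757). Cx3cr1 for 15-day over 5-day turned to -0.0022 with a fixed mix and to -0.0040 in the deeper cluster alone. Il34 in pericyte-like cells turned to 0.0909 (each library alone) and 0.0978 (thinned) for 15-day over SC, and to 0.0694 (thinned) for 15-day over 5-day. Cx3cl1 in neuron-like cells turned to -0.47 (thinned) for 15-day over 5-day. The cause was not tested. Depth limits what can be said of Cd200r1 and of the small classes.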

Other observations

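Of 24 measured genes of disease-associated microglia, a state described in neurodegeneration, 3 were higher and 21 lower at 5 days over SC. At 15 days over SC, 10 of 25 were higher and 15 lower. Of all genes read in the class, which met higher minimums than the list asks for, 46.9% and 37.8% were higher. The size rule was passed in either direction by 0.433% and 1.73% of all genes read. Past the size rule and lower were Spp1, which encodes osteopontin (31.3, 7.58 and 11.1 CPM), and Lgals3, which encodes galectin-3 (69.4, 26.2 and 28.7 CPM), in both comparisons, and Ank at 15 days (32.1 to 17.2 CPM). This list shares Apoe and Lpl with the list of Trem2 partners. Both comparisons use the same SC library.

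Of a list of genes that respond to tissue dissociation, some chemokine genes stood highest in the SC microglia-like cells. Ccl4 was at 466, 124 and 234 CPM and Ccl3 at 254, 109 and 157 CPM, lower than SC past the size rule in both comparisons. Ccl2, named after its values were seen, was not, at 61.8, 62.9 and 65.6 CPM. Il1b was higher at 15 days, at 69.3 against 32.1 CPM in SC. Over the whole list of 31 such genes, 21 were higher at 5 days and 18 at 15 days. Of all genes read in the class, 0.433% and 1.73% passed the size rule in either direction. Genes for other signals active on microglia, listed as factors from non-microglial cells, were also read in the microglia-like class. Of these, 3 of 16 were higher at 5 days and 5 of 17 at 15 days. Among them Ccl5 was at 41.1, 10.7 and 29.5 CPM. Ccl5 was also among the leading genes of the border macrophage-like cluster, and the part of RNA from other cells in its values was not tested.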
